A study of Danio rerio with 116 samples.

Results

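Germ cells whose libraries were rich in one ribosomal DNA (rDNA) region were compared with germ cells whose libraries were not, in zebrafish undergoing gonad transformation. The 24 members were the libraries of EGFP +ve cells at 35, 40, 45 and 50 days post fertilisation (dpf), out of 116 libraries in the series. They were chosen by a measured value: a library was called amplified where over 1.5% of its distinct reads had a CG call on chromosome 4 between positions 76313463 and 76330850, a stretch of 17388 bp. By this rule 9 libraries were amplified and 15 were not, and the latter are called the other libraries. The amplified libraries came from 8 presumptive females and 1 presumptive male, the other libraries from 4 presumptive females and 11 presumptive males. Everything tested below was measured on reads outside that region.

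In many fish and amphibians the young oocyte makes extra copies of its rDNA, which carries the genes of the ribosomal RNAs, and packs them into numerous nucleoli lying around the edge of the nucleus. Zebrafish have separate rDNA loci for the oocyte and for somatic cells, and the oocyte locus lies near the end of chromosome 4, a chromosome whose long arm is repeat-rich and late replicating. Juvenile zebrafish of both sexes first form an ovary-like gonad with such oocytes, and in males these oocytes are then lost while a testis develops. DNA methylation at CG dinucleotides is high over most of the zebrafish genome and low in CG-rich stretches, many of them promoters.

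The fish carried the Tg(vasa:EGFP) transgene, in which the promoter of the germline gene vasa drives EGFP. Each library at these ages came from 1 fish, its sex presumed from the strength of the EGFP signal, so that sex and EGFP intensity are not independent. Dissociated cells passed a 40 µm strainer and were sorted into EGFP +ve and EGFP −ve cells, so that cells wider than the mesh are not expected in the samples. The EGFP −ve cells, 24 libraries of the same ages and sexes, served as non-germline controls, and no group received a treatment. Libraries were made by post-bisulfite adaptor tagging and sequenced at low coverage, and each read gives a methylated or unmethylated call at every CG it covers. DNA gives no marker transcripts, so the label of germ cells rests on the sort, and the composition of each sort is not known. More oocytes in a sort and more copies per oocyte cannot be told apart in such bulk libraries.

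The amplified libraries covered a wide range of region shares. The share of reads in the region was 2.33% in 35 dpf female A, 2.46% in 45 dpf female C and 3.46% in 45 dpf female A. It was 5.92% in 50 dpf female B, 7.14% in 40 dpf female B and 7.95% in 45 dpf female B. All 3 of the 40 dpf females were amplified, and the highest shares were theirs, 16.04% in female C and 26.5% in female A. The only amplified male, 40 dpf male B, had 7.96%. The 2 libraries just inside the threshold were thus 35 dpf female A and 45 dpf female C, and those just outside it were 50 dpf female A at 1.02%, 50 dpf male C at 0.960% and 45 dpf male A at 0.715%. Of the 15 other libraries, 12 had under 0.5%, and 8 of these lay at or below 0.140%, the highest share in the controls. The share in the other libraries reached down to 0.0187%, and 1 of the 24 controls had no read in the region.

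Region calls were nearly all unmethylated in the amplified libraries, between 0.283% methylated in 50 dpf female B and 3.76% in 45 dpf female B. In the other libraries the methylation of the region spanned 0% to 90.2%, with 0.623% in 50 dpf male C and 3.39% in 50 dpf female A, the libraries nearest the threshold. Both ends of that span rest on few reads. The 90.2% came from 2 reads in 45 dpf male B. The 0% came from 2 reads in 35 dpf male C and 5 reads in 35 dpf female C. These values belong to the reads that chose the members and are given as a description only.

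**Figure D1:**
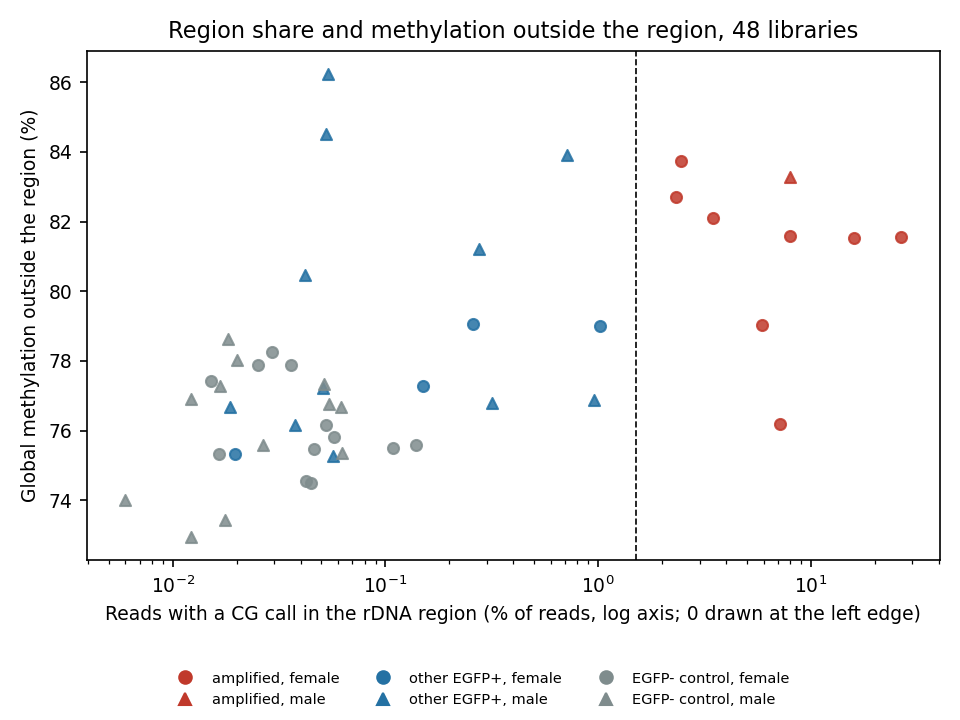
Region share, the per cent of reads that touch the rDNA region (horizontal, log axis) against global methylation outside the region (vertical, per cent) in 9 amplified (red), 15 other EGFP +ve (blue) and 24 control (grey) libraries; circles are presumptive females, triangles presumptive males, and the dashed line is the 1.5% threshold. The amplified libraries sit between 76.2% and 83.7%, and male libraries left of the line reach 86.2%.

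The groups were uneven in age, sex, depth and sequencing run. At 35 dpf 1 library was amplified against 5 others, at 40 dpf 4 against 2, at 45 dpf 3 against 3 and at 50 dpf 1 against 5. At 45 dpf all amplified libraries were female and all others male, so group and sex cannot be told apart there, and at 40 dpf every female was amplified. Both groups were present within the same age and sex in only 3 cases (35 dpf females, 40 dpf males and 50 dpf females), with 3 amplified and 6 other libraries. Differences between amplified and other libraries in presumptive females therefore rest on 35 and 50 dpf only, with 1 amplified library at each age. No p under 0.05 is possible with so few libraries. The amplified libraries held 2433 to 25162 reads outside the region (median 3961), the other libraries 3311 to 22491 (median 10524) and the controls 3782 to 24581 (median 7912.5). By the run number in the read names, 8 amplified and 8 other libraries belonged to run 112, 1 and 3 to run 104, and 4 others to run 157. The 4 included both other females of 35 dpf and male C of 40 dpf. Values within age and sex, or in presumptive females, therefore cannot fully separate group from run. The controls were on run 112 except for 1 on run 157.

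Differences between amplified and other libraries were taken within each age and averaged over the 4 ages, and tested by a two-sided exact permutation test that exchanged the labels within ages. This gives 10800 arrangements, of which the smallest possible p is 9.3e-05. The ages counted equally, so the 1 amplified library of 35 dpf and the 1 of 50 dpf weighed as much as the 4 of 40 dpf. Each difference is given with a standard error (SE) from the spread of libraries of the same group and age, pooled over both groups and all ages. The 1 amplified library of 35 dpf and the 1 of 50 dpf add no spread of their own. The SE therefore assumes an equal spread in both groups and at every age. The p-values measure the spread between fish, since each library was 1 fish. They were adjusted by the Benjamini-Hochberg method over the 28 summary measures, over the 25 chromosomes or over the windows.

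Across the 28 summary measures none differed at an adjusted p under 0.05 (0.0% called), and 1 had an unadjusted p under 0.05. This was the share of mixed reads among reads with 8 or more CG calls. In global methylation the 3 highest of the 24 germ cell libraries were not amplified, and 9 of the 15 other libraries lay within the range of the amplified ones.

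Global methylation, the mean over 10 Mb windows of chromosomes 1 to 25, was 82.7% in 35 dpf female A, 83.7% in 45 dpf female C, 82.1% in 45 dpf female A and 81.6% in 45 dpf female B. It was 79.0% in 50 dpf female B, and at 40 dpf 81.5% in females A and C, 76.2% in female B and 83.3% in male B. 40 dpf female B was the lowest of the amplified libraries, and the remaining 8 all lay above the median of the other libraries, 77.3%. The mean was 81.3% ± 2.34 (SD, n = 9) in amplified and 79.1% ± 3.49 (SD, n = 15) in other libraries. The difference over ages was 2.03 percentage points (SE 1.56), with exact permutation p = 0.187 and adjusted p = 0.435. It was positive at each of the 4 ages, though 35 and 50 dpf had only 1 amplified library each. By age it ran from 1.64 points at 40 dpf to 2.22 points at 35 dpf, smaller than the spread between fish.

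The same difference was 3.57 points within age and sex (exact permutation p = 0.0741, adjusted p = 0.148, with 27 arrangements). That value sets amplified libraries partly against other libraries of run 157, which held no amplified library. With labels exchanged within sequencing runs and age left aside, global methylation differed by 1.25 points (exact permutation p = 0.503). Runs 112 and 104 counted equally there, although run 104 held only 1 amplified and 3 other libraries. On run 112 alone the means were 81.6% in 8 amplified and 80.6% in 8 other libraries, and the 4 other libraries of run 157 averaged 77.1%. The part of sex, run and depth in these differences was not tested beyond these values.

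Reads were grouped by how many CG calls they carry. Many calls tend to mark CG-rich DNA, though the number also rises with read length, which was not taken into account. Reads with 1 call were 82.3% ± 3.47 methylated in amplified and 78.8% ± 4.8 in other libraries (SD, n = 9 and 15). The difference over ages was 3.52 points (SE 2.28, exact permutation p = 0.115). Reads with 2 or 3 calls were 84.7% ± 2.49 against 81.0% ± 4.57 methylated, a difference of 3.66 points (SE 2.07, exact permutation p = 0.0677). For reads with 4 to 7 calls the values were 83.3% ± 2.26 and 80.1% ± 3.74, a difference of 2.72 points (SE 1.66, exact permutation p = 0.0922), and 9 of 9 amplified libraries lay above the median of the others. None of these differences passed the adjustment (adjusted p of 0.323 at the least).

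CG-rich reads had a difference near 0, and its sign varied with age. Reads with 8 or more calls were 73.3% ± 3.85 methylated in amplified and 73.8% ± 1.92 in other libraries (SD, n = 9 and 15), with a difference of -0.28 points (SE 1.03, exact permutation p = 0.814, adjusted p = 0.844). The amplified values ran from 66.9% in 40 dpf female B to 79.4% in 45 dpf female B, wider than the 71.0% to 77.8% of the other libraries. These reads were few, between 142 and 1756 in an amplified library, and the counting SE of a library's value reached 2.95 points. The gap between sparse reads (1 to 3 calls) and these dense reads was 10.9 points ± 4.24 in amplified, 6.74 ± 4.63 in other and 3.70 ± 2.15 in control libraries. Between amplified and other libraries the gap differed by 3.92 points (SE 2.08, exact permutation p = 0.0768), and by 1.93 points without 50 dpf female B, the only amplified library of its age. The gap was 7.26 points or more in 8 of the 9 amplified libraries and only 1.26 points in 45 dpf female B. It exceeded the highest control, 7.71 points, in 7 of 9 amplified and 5 of 15 other libraries. The widest gap of the germ cell libraries, 14.8 points, was in 45 dpf male A, which was not amplified.

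**Figure D2:**
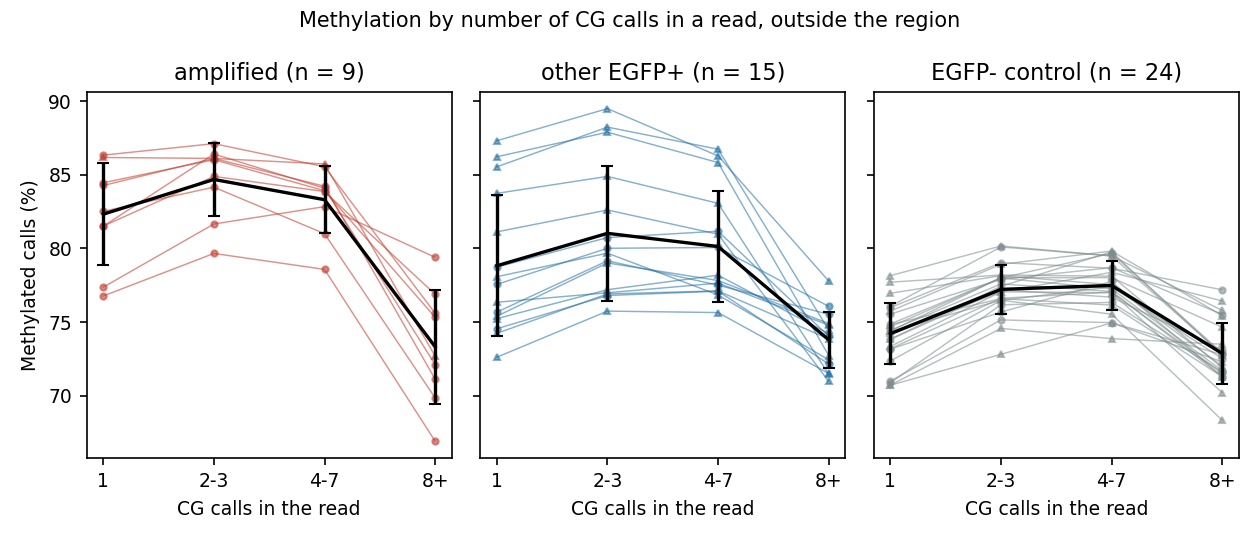
Per cent of methylated calls (vertical) in reads with 1, 2 to 3, 4 to 7 and 8 or more CG calls (horizontal), 1 line per library, with group mean and SD in black. Means fall from 83.3% to 73.3% between the last 2 classes in amplified libraries, from 80.1% to 73.8% in other libraries and from 77.5% to 72.9% in controls.

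Within reads of 4 to 7 calls, mixtures of methylated and unmethylated calls were fewer in all 9 amplified libraries than in any control, while the difference from the other germ cells did not pass the adjustment. The mixed share depends in part on the methylation of these reads, 83.3% in amplified, 80.1% in other and 77.5% in control libraries. A difference beyond that level was not tested. Among reads with 4 to 7 calls, the mixed share was 28.2% in 35 dpf female A, 31.4% in 50 dpf female B, and 31.5%, 33.8% and 27.0% in 45 dpf females A, B and C. At 40 dpf it was 27.3%, 35.7% and 29.3% in females A, B and C and 26.04% in male B. All 9 lay below the lowest control, 37.3%, and below the median of the other libraries, 37.8%. The mean was 30.03% ± 3.29 in amplified and 35.4% ± 6.31 in other libraries, a difference over ages of -5.05 points (SE 2.75, exact permutation p = 0.0591, adjusted p = 0.323). The reads were instead fully methylated in 62.2% ± 3.99 of cases against 56.0% ± 7.33, a difference of 5.55 points (SE 3.23, exact permutation p = 0.075). Fully unmethylated reads of this class made up 7.72% ± 1.20 and 8.57% ± 1.28, which differed by -0.50 points (exact permutation p = 0.452).

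The 15 other libraries did not form a single cloud on this measure. In 10 of them the mixed share lay above the highest amplified value, between 36.3% and 42.4%, and all 4 libraries of run 157 were among them. In the remaining 5, all from presumptive males and from runs 112 and 104, it lay within or below the amplified range. It was 23.7% in 35 dpf male A, 25.2% in 35 dpf male B, 25.7% in 45 dpf male A, 30.6% in 40 dpf male A and 32.0% in 45 dpf male C. Their shares of region reads were 0.0535%, 0.0524%, 0.715%, 0.275% and 0.0417%, and their global methylation was 86.2%, 84.5%, 83.9%, 81.2% and 80.5%, in the same order. The lowest mixed share and the highest global methylation of all 24 germ cell libraries thus belonged to 35 dpf male A, whose region share was within the control range.

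Among reads with 8 or more calls the mixed share was 35.7% ± 4.26 in amplified and 41.5% ± 5.58 in other libraries, a difference of -5.36 points (SE 2.56). This was the measure with an unadjusted exact permutation p under 0.05 (p = 0.0333, adjusted p = 0.323). The amplified libraries ran from 26.9% in 40 dpf male B to 41.5% in 45 dpf female B, and 0 of 9 lay above the median of the others, 42.8%. Fully methylated reads of this class were 46.0% ± 3.87 against 42.3% ± 4.36, and fully unmethylated reads 18.4% ± 3.63 against 16.2% ± 2.51. Both extremes were higher on average in amplified libraries, with exact permutation p of 0.0836 and 0.157. Within age and sex the mixed share differed by -9.39 points in this class and by -9.16 points among reads with 4 to 7 calls. Both had exact permutation p = 0.037, the smallest that 27 arrangements allow, and adjusted p = 0.148. In that comparison some of the other libraries were on run 157, which held no amplified library. On run 112 alone, with 8 libraries in each group, the gaps were smaller. Mean mixed shares there were 35.6% in amplified against 39.2% in other libraries for 8 or more calls, and 29.9% against 32.5% for 4 to 7 calls. The 4 other libraries of run 157 averaged 44.1% and 39.5%.

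**Figure D3:**
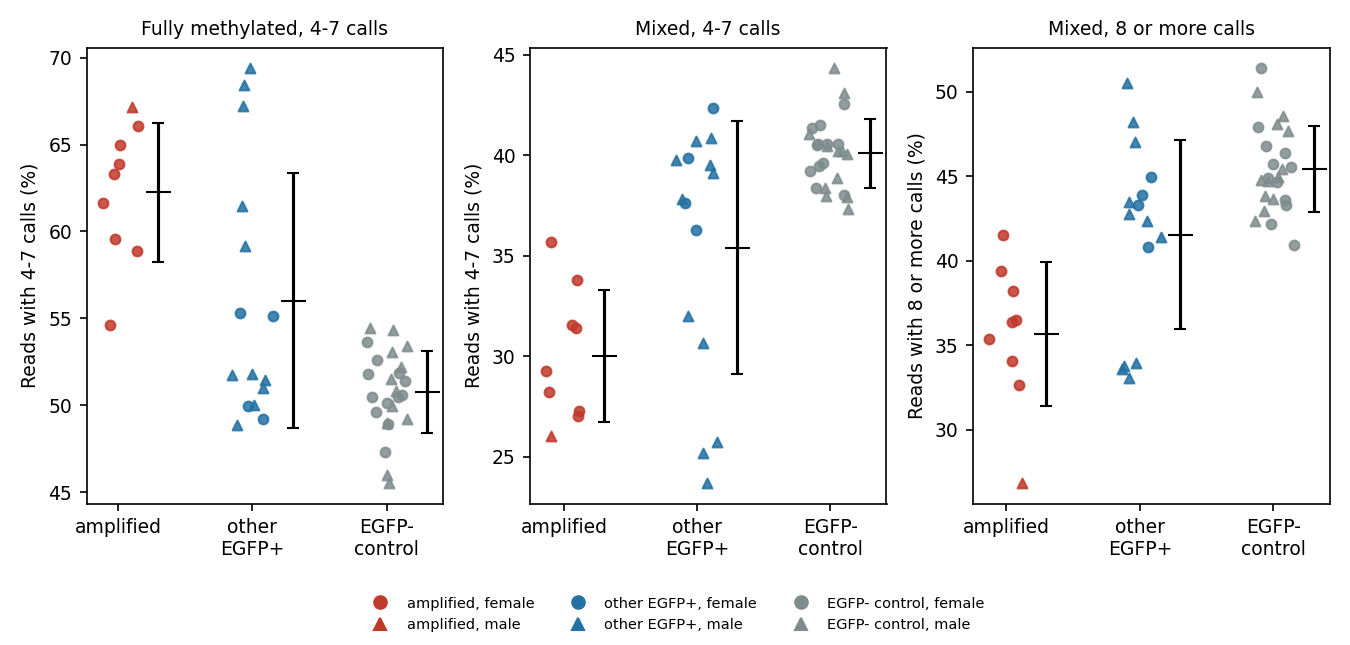
Fully methylated and mixed reads as per cent of reads with 4 to 7 calls (left and middle) and mixed reads as per cent of reads with 8 or more calls (right), 1 point per library; circles are presumptive females, triangles presumptive males, bars are mean and SD. In the middle panel all 9 amplified libraries lie at or below 35.7%, while the other libraries split into 5 males at or below 32.0% and 10 libraries from 36.3% upwards.

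Comparison of each germ cell group with the control libraries of the same age and sex was added after the values had been seen. Against controls, 18 of 28 measures differed in the amplified libraries at an adjusted p under 0.05 (64.3% called), 15 higher and 3 lower, by an exact permutation test within age and sex with 25600 arrangements. The same test called 14 of 28 in the other libraries (50.0% called), 12 higher and 2 lower. The 28 measures overlap, many being parts or restatements of the same methylation level, so these are not counts of separate differences. The 2 comparisons share control libraries, and the difference between them was not tested. The direct test of amplified against other libraries, within age and without controls, is the one given above.

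Global methylation in amplified germ cells exceeded controls by 5.38 points (81.3% ± 2.34, n = 9, against 76.1% ± 1.36, n = 15; exact permutation p = 3.9e-05, the smallest possible, adjusted p = 0.000122). In other germ cells it exceeded controls by 2.67 points (79.1% ± 3.49, n = 15, against 76.2% ± 1.67, n = 18; exact permutation, adjusted p = 0.0149). The highest control had 78.6%, and 8 of 9 amplified and 7 of 15 other libraries lay above it. Against controls the amplified libraries were higher by 9.22 points in reads with 1 call, 7.76 in reads with 2 or 3 calls and 5.91 in reads with 4 to 7 calls. In reads with 8 or more calls the difference was 0.60 points (exact permutation p = 0.543). The other libraries showed the same order against controls, with 4.28, 3.52 and 2.41 points (exact permutation, adjusted p of 0.0135, 0.0135 and 0.0418). In their reads with 8 or more calls the difference was 0.88 points (exact permutation p = 0.219). The mixed share of reads with 4 to 7 calls was lower by 10.7 points in amplified and by 4.15 points in other libraries than in controls. All 9 amplified libraries lay below the lowest control on that measure, and 6 of 15 others did.

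The chromosomes were examined next, to ask whether any one of them, chromosome 4 above all, differed with amplification. None of the 25 chromosomes differed in methylation at an adjusted p under 0.05 (0.0% called), and 1 had an unadjusted p under 0.05. All 25 differences over ages were positive, from 0.379 points on chromosome 25 to 5.10 points on chromosome 9, with a median of 2.17 points. The chromosomes were read from the same libraries and share each library's level, so these are not 25 separate results. On chromosome 25 the plain means differed by -0.449 points, and chromosomes 22 and 25 were each positive at 2 ages. The smallest p belonged to chromosomes 23, 7 and 17. Chromosome 23 was 82.4% ± 3.04 methylated in amplified and 78.7% ± 3.68 in other libraries, a difference of 3.52 points (SE 1.57, exact permutation p = 0.0277, adjusted p = 0.488). Chromosomes 7 and 17 differed by 2.68 points (SE 1.54) and 4.16 points (SE 2.40), with exact permutation p of 0.0759 and 0.0786, and on chromosome 17 all 9 amplified libraries lay above the median of the others.

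Chromosome 4, which carries the region, was tested only with the region left out and did not pass the test. Its methylation was 84.4% ± 4.00 in amplified and 82.6% ± 3.59 in other libraries (SD, n = 9 and 15), a difference of 0.80 points (SE 1.92, exact permutation p = 0.633, adjusted p = 0.711 over the 25 chromosomes). Within age and sex the difference was larger, 4.51 points (exact permutation p = 0.037, the smallest that 27 arrangements allow, adjusted p = 0.148). In presumptive females of 35 and 50 dpf, with 1 amplified library at each age, it was 3.40 points (exact permutation p = 0.111, the smallest possible there). Both values set amplified libraries partly against other libraries of run 157, which held no amplified library. Methylation of chromosome 4 ran from 77.6% in 40 dpf female B to 91.4% in 40 dpf male B among the amplified libraries. Beyond 30 Mb, where the repeat-rich arm lies, methylation was 88.5% ± 2.35 against 86.6% ± 3.31, and up to 30 Mb it was 80.0% ± 6.12 against 77.6% ± 5.48. These differed by 1.05 points (exact permutation p = 0.429) and 1.76 points (exact permutation p = 0.529). By window of 10 Mb, the amplified mean ran from 75.6% in the second window to 90.5% in the window from 60 to 70 Mb. The other libraries ran from 77.2% in the first window to 88.8% in the window from 60 to 70 Mb. In the last window, which holds the region, the remaining calls were 87.5% ± 4.91 methylated in amplified, 88.2% ± 5.13 in other and 82.4% ± 5.91 in control libraries. There the difference over ages between amplified and other libraries was -2.77 points (exact permutation p = 0.174, adjusted p = 0.689). It was negative at every age, unlike most windows.

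The share of reads on the rest of chromosome 4 did not pass the test either. It was 4.36% ± 0.563 in amplified and 4.22% ± 0.555 in other libraries, and the difference over ages was -0.14 points (SE 0.269, exact permutation p = 0.552). The sign turns with the weighting of ages, since the plain means differ the other way. Beyond 30 Mb the share was 1.98% ± 0.426 against 2.01% ± 0.432. In the stretch from 76 Mb to the last call on the chromosome, outside the region, the 9 amplified libraries held 37 reads, which is 0.0493% ± 0.0355 of their reads (mean ± SD). The other libraries held 76 reads or 0.0564% ± 0.0333, and the controls 139 reads or 0.0603% ± 0.0307. The mean share beside the region was thus lowest in the amplified libraries, by less than the spread between libraries and from few reads.

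Among windows of 10 Mb, 136 of 146 had at least 20 calls in every library and were tested. None passed the adjustment (0.0% called), 6 had an unadjusted p under 0.05, all higher in amplified libraries, and 107 of the 136 differences were positive. Like the chromosomes, the windows share each library's level and are not separate results. The window with the smallest p was the first of chromosome 1 (positions 1 to 10000000), 84.9% ± 6.18 methylated in amplified and 76.4% ± 6.15 in other libraries. It differed by 9.34 points (exact permutation p = 0.00296, adjusted p = 0.403). The next were positions 10000001 to 20000000 of chromosome 17, which differed by 10.0 points (exact permutation p = 0.0153), and positions 20000001 to 30000000 of chromosome 18, by 7.79 points (exact permutation p = 0.023), each with an adjusted p of 0.689.

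**Figure D4:**
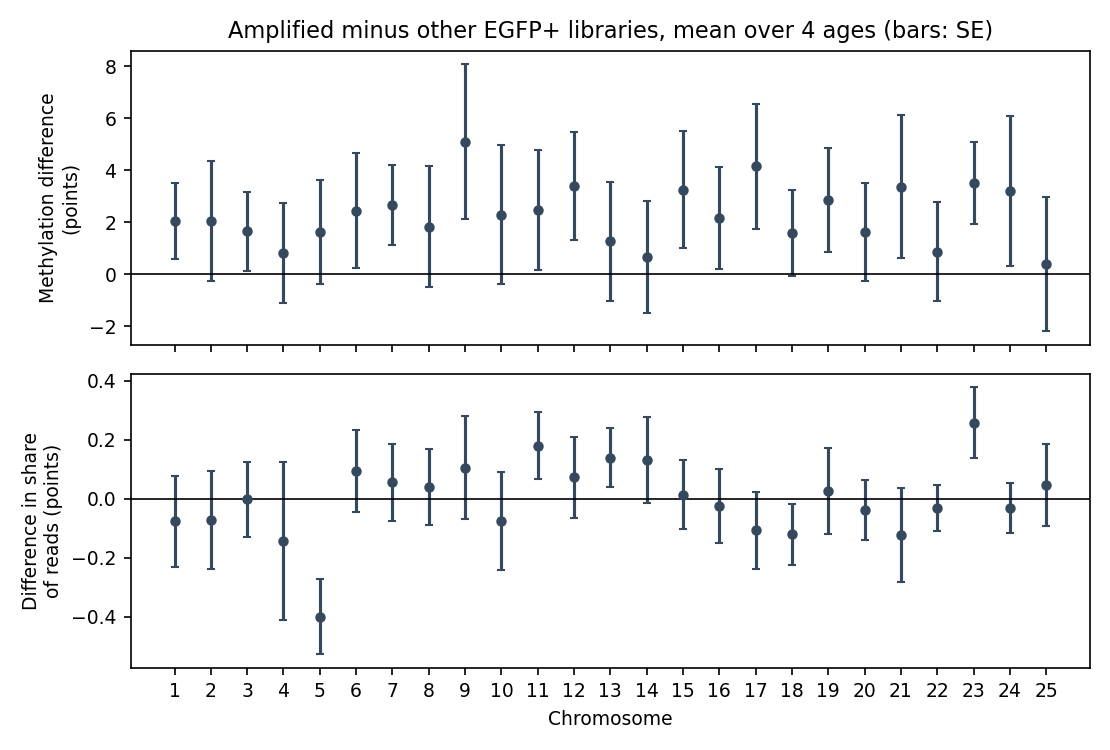
Amplified minus other libraries for each of chromosomes 1 to 25 (horizontal), in methylation (top, percentage points) and in share of reads outside the region (bottom, percentage points); points are means over 4 ages and bars are SE. Every methylation difference is above 0, from 0.379 to 5.10 points, and in the bottom panel chromosome 5 stands lowest at -0.40 points.

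In shares of reads, none of the 25 chromosomes passed the adjustment (0.0% called) and 2 had an unadjusted p under 0.05, chromosome 5 lower and chromosome 23 higher in amplified libraries. Chromosome 5 took 4.66% of the reads in 40 dpf female C, 4.86% at the median and 5.02% in 45 dpf female C. In the other libraries it took 4.61% at the lowest, 5.35% at the median and 5.73% at the highest, and 12 of 15 lay above every amplified library. The means were 4.86% ± 0.135 and 5.28% ± 0.278, a difference over ages of -0.40 points (SE 0.127, exact permutation p = 0.0062, adjusted p = 0.155), negative at each of the 4 ages. The controls lay between, at 5.05% ± 0.256 (n = 24), and 16 of 24 of them were above every amplified library. Along chromosome 5, 6 of the 8 windows of 10 Mb had a lower mean share in amplified libraries. With labels exchanged within sequencing runs and age left aside, the difference was -0.36 points (exact permutation p = 0.013, adjusted p = 0.324). Within age and sex it was -0.37 points (exact permutation p = 0.111, adjusted p = 0.661). Chromosome 5 was singled out after its values had been seen. Chromosome 23 took 3.79% ± 0.197 against 3.54% ± 0.243, a difference of 0.258 points (SE 0.120, exact permutation p = 0.0489, adjusted p = 0.611).

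How reads split by number of CG calls did not differ by the test between amplified and other libraries. Reads with 1 call were 25.5% ± 2.40 and 26.6% ± 1.17 of reads, those with 2 or 3 calls 37.8% ± 0.617 and 38.1% ± 0.671, and those with 4 to 7 calls 29.4% ± 1.83 and 28.6% ± 1.01. Reads with 8 or more calls made up 7.41% ± 1.04 in amplified and 6.76% ± 0.695 in other libraries, against 7.14% ± 1.01 in controls. That difference over ages was 0.336 points (SE 0.333, exact permutation p = 0.272).

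Unplaced scaffolds, pieces of the assembly with no assigned chromosome that are often repetitive, took 2.12% to 2.57% of reads in the amplified libraries and 1.92% to 2.75% in the others. On the log2 scale of the per cent, with 0.5 reads added, the means were 1.24 ± 0.0997 and 1.16 ± 0.143, and the difference over ages was 0.06 (SE 0.065, exact permutation p = 0.371). Scaffold calls were 85.04% ± 2.65 methylated in amplified and 82.2% ± 4.37 in other libraries, a difference of 2.05 points (SE 1.89, exact permutation p = 0.244). The scaffold values therefore had the same sign as the chromosomes. As a description, the 3 scaffolds with the largest gain in mean share were KN150079.1 (0.0243% against 0.00536%), KN150643.1 (0.0193% against 0.00139%) and KN150375.1 (0.0259% against 0.00874%). The amplified libraries held only 6, 7 and 16 reads on them. The largest difference of any scaffold was a loss, on KN150127.1 (0.0812% against 0.112%), from 44 reads in amplified and 160 in other libraries. Among windows of 100 kb the largest gains were on chromosome 14 from 19700001 (0.124% against 0.0811%), chromosome 10 from 16800001 (0.163% against 0.124%) and chromosome 16 from 26000001 (0.125% against 0.0891%), far below the region's own share.

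Mitochondrial DNA, which oocytes hold in large amounts, was more frequent in germ cells than in controls but varied widely among both germ cell groups. At 40 dpf it was 0.259%, 0.289% and 0.0348% of reads in amplified females A, B and C and 0.350% in amplified male B. At 45 dpf it was 0.303%, 0.164% and 0.158% in females A, B and C, with 0.159% in 35 dpf female A and 0.203% in 50 dpf female B. 40 dpf female C, with the second highest region share, had the lowest mitochondrial share, 1 read of 2874 outside the region, and the other 8 were all above the highest control, 0.115%. The other libraries ran from 0% to 0.448%, and 9 of 15 were above the highest control. The library at 0%, 35 dpf male C, had no mitochondrial read among 3526, which allows a share of up to 0.0851%.

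On the log2 scale of the per cent, with 0.5 reads added, the mitochondrial share averaged -2.32 ± 0.842 in amplified and -3.01 ± 1.40 in other libraries. The difference over ages was 0.41 (SE 0.645, exact permutation p = 0.491). It was 0.80 within age and sex (exact permutation p = 0.148) and 1.02 in presumptive females (exact permutation p = 0.333), and by age it was negative at 40 dpf and positive at the other ages. Against controls the log2 share was higher by 1.95 in amplified libraries (exact permutation, adjusted p = 0.000273) and by 1.27 in other libraries (exact permutation, adjusted p = 0.0135). Mitochondrial calls were methylated in 21 of 397 cases in amplified libraries, 5.29% (95% exact interval 3.30% to 7.97%), in 4.71% of 806 calls in other libraries (3.36% to 6.41%) and in 6.39% of 391 calls in controls (4.18% to 9.29%). Mitochondrial DNA is held to be largely unmethylated. The intervals treat every call as independent, although calls share reads and fish, so they are likely too narrow. Amplified 45 dpf female C had 8 of 42 calls methylated, from 8 reads. Control 35 dpf male C had 11 of 28, also from 8 reads.

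**Figure D5:**
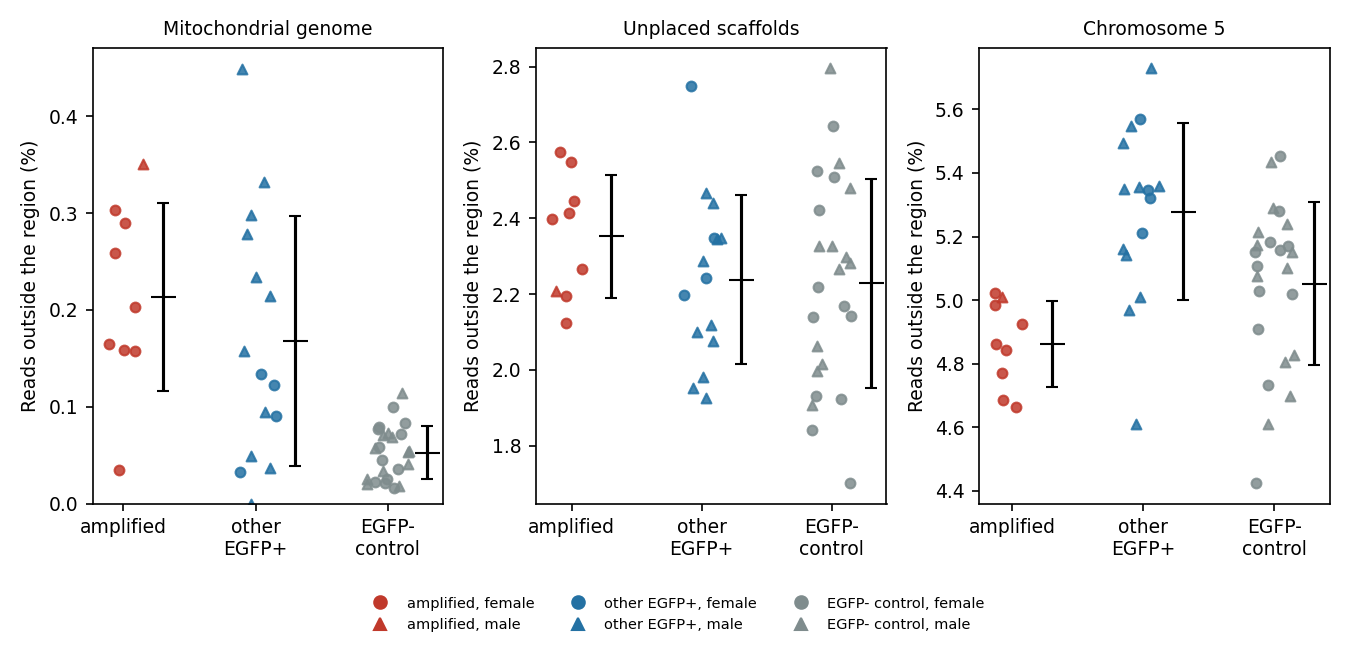
Shares of reads outside the region, in per cent, on the mitochondrial genome (left), unplaced scaffolds (middle) and chromosome 5 (right), 1 point per library; circles are presumptive females, triangles presumptive males, bars are mean and SD. Amplified libraries lie between 0.0348% and 0.350% for the mitochondrial genome and at or below 5.02% for chromosome 5.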

How the data were processed

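Per the labels, Trim Galore and Bismark 0.19.0 were used on the reads, and the authors deposited 1 line per CG call for each of 116 libraries, with read name, chromosome, position and methylation state, without normalization or pooling. The submitters' processing notes name GRCz10 and the paper's methods name a later assembly. Positions are given as deposited. The labels and the methods give different read lengths. From these calls, percentages were computed here with Python 3.11.15, pandas 2.3.3, numpy 2.4.6 and scipy 1.17.1, and plots with matplotlib 3.10.9.

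A read belongs to the region if any of its calls lies there. A call's read class is its number of CG calls. Shares are per cent of distinct reads outside the region. Scaffold and mitochondrial shares were tested as log2 with 0.5 reads added. Windows of 10 Mb needed 20 calls in every library. The text names chromosome 4 and its windows, and at most 3 chromosomes and 3 windows of 10 Mb (those with the smallest p where none passed). As description it names the 3 windows of 100 kb and the 3 scaffolds with the largest gain in mean share, and the scaffold with the largest loss. Members and measures were chosen with earlier results of these data known, and the comparisons with controls and the limit of 5000 reads after seeing the data. The chromosome test was also run on simulated calls with known shifts. These were drawn without the spread between fish, so they do not show its error rate or power in these data.

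Alternatives exchanged labels over all libraries, within age and sex and within run, blocked by replicate letter, moved the threshold to 1% or 3%, counted identical reads once, left out the last 1 Mb of chromosome 4, changed windows or read classes, and left out each library in turn. Exchange over all libraries, within run or by letter left age out of the test of amplified against other libraries. The labels do not say whether libraries with 1 letter come from 1 fish.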

Additional observations from a re-analysis of the deposited data

Results flagged for a closer look

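Among the 9 amplified libraries, a value was picked out where its gap to the nearest neighbour was over 0.493 of the group's range. The 15 other libraries were too many for this rule. Chance picks about 1 group in 20, and 28 measures were examined. Methylation of chromosome 4 beyond 30 Mb was 83.4% in 40 dpf female B, below the other 8 amplified libraries. The share of reads with 2 or 3 calls was 36.4% in 40 dpf female C, also the lowest. The log2 mitochondrial share was -4.26 in 40 dpf female C, from a single read.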

How the results depend on the processing

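Among the 14 summary measures recomputed under the alternatives, no amplified against other difference reached an adjusted p under 0.05 (exact permutation, lowest adjusted p = 0.137). In presumptive females alone none could reach it, since there were only 9 arrangements. Directions that turned belonged to differences near 0. The chromosome 4 share, -0.14 points, was 0.143 points with labels exchanged over all libraries and 0.135 with the replicate block. The methylation of reads with 8 or more calls, -0.28 points, was 0.631 with the threshold at 1% and 0.873 with reads of 6 or more calls. The share of reads with 8 or more calls, 0.336 points, was -0.13 within age and sex and -0.12 in presumptive females, and the log2 scaffold share, 0.06, was -0.0521 and -0.0468.

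Leaving out 1 library at a time gave 1.48 to 2.58 points for global methylation, 0.0900 to 1.52 for chromosome 4 methylation and -0.33 to 0.0463 for the chromosome 4 share. The range was -0.70 to 0.967 points for the methylation of reads with 8 or more calls, 0.185 to 0.521 for their share, and 1.31 to 3.05 for scaffold methylation. It was 0.0208 to 0.118 for the log2 scaffold share and 0.156 to 0.586 for the log2 mitochondrial share, and 1.93 to 5.31 points for the gap between sparse and dense reads. Under the other alternatives the log2 mitochondrial difference ran from 0.212 to 1.02. The count of called chromosomes was 0 to 1, with the 1 call when 35 dpf male A was left out. The chromosome 4 share turned without 40 dpf male A (0.0463). The methylation of reads with 8 or more calls turned without 40 dpf female B (0.0338), 50 dpf female B (0.967) or 40 dpf male C (0.134). Without 35 dpf female A or 50 dpf female B, each the only amplified library of its age, the mean was over the remaining ages. Against controls, 15 to 18 measures were called for amplified and 10 to 14 for other libraries.

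The lower chromosome 5 share passed the adjustment in the exact permutation test with labels exchanged over all libraries (adjusted p = 0.0135), with the replicate block (0.0251) and without 50 dpf male B (0.0167). It did not pass under the other alternatives, with an adjusted p of 0.396 without 40 dpf male C and a difference of -0.30 points with the threshold at 1%. Presumptive females alone cannot decide this, since their 9 arrangements allow no exact permutation p under 0.05. With presumptive females only, the count against controls for the other libraries fell from 14 to 0, with 4 libraries and 100 arrangements, and 0 measures had an unadjusted p under 0.05 (exact permutation, lowest p = 0.07). The replicate block gave 2.37 points for global methylation (exact permutation, adjusted p = 0.167). With the letter as a block against controls, the counts were 16 for amplified and 10 for other libraries. Deviations of EGFP +ve and control libraries of the same letter, age and sex correlated at r = -0.30 for global methylation, -0.06 for the mixed share of reads with 4 to 7 calls and 0.243 for the log2 mitochondrial share (n = 24), and no measure had every letter over 0.1, so the letters were not taken as pairs.

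Depth limits the values that rest on few reads. An amplified library held as few as 142 reads with 8 or more calls, 62 scaffold reads and 1 mitochondrial read.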
